A study of Mus musculus with 7 samples.

Results

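Head-to-head promoters are stretches of DNA that lie between the starts of 2 protein-coding genes on opposite strands, which are transcribed away from each other. They were chosen by position alone: pairs of coding genes on chromosomes 1 to 19 (mm10, GENCODE vM21) whose transcription start sites (TSSs) lie at most 1000 nt apart. The rule gave 1066 pairs holding 2098 genes, 10.1% of the 20722 coding genes on these chromosomes. Of these genes, 34 were in 2 pairs each, and 28 pair windows overlapped an earlier one, so that neighbouring pairs are not always separate measurements. The distance between the TSSs had a median of 120 nt, with quartiles of 66 and 243 nt and a largest value of 987 nt. The pairs were set beside 14154 solitary promoters, each the outermost coding TSS of a gene with no coding TSS of another gene within 10 kb.

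The values come from DNase-seq of a conditionally immortalised mouse podocyte line, the epithelial cell of the kidney's filter, treated for 36 h after growth arrest in reduced serum. The groups, in the order in which every set of 3 values is given, were normal glucose (NG, 5 mM), high glucose with a nontargeting mimic (HG+NT, 25 mM glucose and 50 nM mimic) and high glucose with a miR-93 mimic (HG+miR-93, at the same doses). Each group had 2 samples, deposited as 1 joint peak list, and all 3 lists were called against 1 library of genomic DNA, called the input here. No mimic is named for NG, so glucose and transfection cannot be told apart between NG and HG+NT, and all groups are 1 cell line.

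In DNase-seq, an enzyme cuts DNA that nucleosomes leave free, and the cut fragments are sequenced. Many mammalian genes share a promoter with a neighbour that is read in the opposite direction. Such promoters are mostly CpG islands with no TATA box, they lie between genes of DNA repair, mitochondria and basic metabolism more than between genes of a single tissue, and the DNA between their TSSs is typically held open by factors that serve both genes.

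The DNA between the TSSs is printed for 6 pairs whose genes have well known roles and whose stretch no coding transcript covers. All are on GRCm38, read 5′ to 3′ on the plus strand, so that the gene named first starts to the left of the stretch and the gene named last to its right. Capitals mark matches, on either strand, to any of 8 short motifs: CCAAT (the CCAAT box), GGGCGG (the GC box), CCGGAAG (a core of ETS sites), GCATGCGC (NRF1), TGACGTCA (the cyclic AMP response element, CRE), TGAGTCA (AP-1), TATAAA (the TATA box) and ATGGCGGC (YY1). A match is a run of letters, not a shown binding site. The stretches are *Col4a4/Col4a3* (collagen IV chains of the glomerular basement membrane, chr1:82586850-82586975), *Brca1/Nbr1* (homologous recombination and an autophagy receptor, chr11:101551880-101552148), *Wrap53/Trp53* (a telomerase factor and p53, chr11:69580256-69580358), *Emc3/Fancd2* (a membrane insertase subunit and the Fanconi anaemia protein, chr6:113531653-113531681), *Mrps12/Sars2* (a mitochondrial ribosomal protein and the mitochondrial seryl-tRNA synthetase, chr7:28741821-28742001) and *Psmb1/Tbp* (a proteasome subunit and the TATA-binding protein, chr17:15499752-15499887).
Col4a4/Col4a3: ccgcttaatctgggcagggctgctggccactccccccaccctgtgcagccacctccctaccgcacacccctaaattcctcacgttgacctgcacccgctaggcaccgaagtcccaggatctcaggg
Brca1/Nbr1: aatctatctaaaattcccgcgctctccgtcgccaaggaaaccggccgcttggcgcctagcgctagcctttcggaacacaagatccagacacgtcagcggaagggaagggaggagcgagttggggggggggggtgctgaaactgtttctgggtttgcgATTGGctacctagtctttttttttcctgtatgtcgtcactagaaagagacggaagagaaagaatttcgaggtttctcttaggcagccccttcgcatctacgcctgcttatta
Wrap53/Trp53: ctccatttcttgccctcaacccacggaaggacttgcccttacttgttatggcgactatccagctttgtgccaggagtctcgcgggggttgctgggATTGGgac
Emc3/Fancd2: gtaacgtcacgccacggcgcggctttgat
Mrps12/Sars2: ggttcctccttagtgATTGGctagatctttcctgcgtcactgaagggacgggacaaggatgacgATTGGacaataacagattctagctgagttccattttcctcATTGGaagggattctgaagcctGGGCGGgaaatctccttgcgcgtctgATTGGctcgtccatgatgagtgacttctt
Psmb1/Tbp: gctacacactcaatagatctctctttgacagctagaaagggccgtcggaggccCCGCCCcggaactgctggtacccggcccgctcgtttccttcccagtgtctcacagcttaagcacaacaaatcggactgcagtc

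The stretches differ in base composition and in the letters they hold. *Mrps12/Sars2* held 4 CCAAT matches, all on the minus strand, and 1 GC box within 181 nt. *Brca1/Nbr1* and *Wrap53/Trp53* held 1 CCAAT match each, *Psmb1/Tbp* held 1 GC box, and *Col4a4/Col4a3* and *Emc3/Fancd2* held none of the 8 motifs. CpG pairs were most frequent for their length in the 29 nt of *Emc3/Fancd2*, with 5, and *Col4a4/Col4a3* also held 5, but in 126 nt. None of the 6 stretches held a TATA box.

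Over all pairs, the sequence around the midpoint was richer in CpG than that of solitary promoters. In the 500 nt on either side, the ratio of observed to expected CpG had a median of 0.771 (quartiles 0.659 and 0.862) at pairs and 0.540 (quartiles 0.205 and 0.770) at solitary promoters. A ratio of 0.6 or more, called CpG-rich here, was found at 901 pairs, or 84.5% (95% Wilson interval 82.2 to 86.6), and at 45.3% (44.5 to 46.1) of solitary promoters. GC content had medians of 59.9% and 54.6%. Because base composition differs this much, pairs are also set beside the 6409 CpG-rich solitary promoters below.

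Motifs were counted from 250 nt before to 50 nt after each TSS, a window of the same length for every gene. ETS letters were held by 27.8% (26.0 to 29.8) of pair genes, against 9.20% of solitary promoters, 15.6% (14.7 to 16.5) of CpG-rich solitary promoters and 11.2% of all coding genes. YY1 letters followed the same order at 5.72%, 2.16%, 4.10% and 2.67%. The TATA box ran the other way, with 4.39% (3.59 to 5.35) of pair genes, 13.1% of solitary promoters, 6.21% (5.64 to 6.83) of CpG-rich solitary promoters and 12.7% of all coding genes. For these 3 motifs the intervals of pair genes and of CpG-rich solitary promoters did not overlap, although genes of a close pair share part of their window, so that the counts are not independent.

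The other motifs set pairs less apart from CpG-rich promoters in ratio, and of these only the GC box and CCAAT had intervals that did not overlap. GC boxes were found at 66.7% (64.7 to 68.7) of pair genes, 43.5% of solitary promoters, 73.5% (72.4 to 74.5) of CpG-rich solitary promoters and 44.5% of all coding genes. The pair genes include those of the 15.5% of pairs that are CpG-poor. Motifs were not counted in CpG-rich pairs alone, so the order of pairs and solitary promoters within the CpG-rich class is not known. CCAAT was found at 40.8%, 38.1%, 36.6% and 38.6% in the same order, NRF1 letters at 6.43%, 3.05%, 5.65% and 3.47%, and CRE letters at 4.62%, 2.32%, 3.78% and 2.45%. AP-1 letters were at 2.43% of pair genes, 4.69% of solitary promoters, 2.50% of CpG-rich solitary promoters and 4.40% of all coding genes.

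DNase signal was read at the summit of the strongest peak overlapping each window, which runs from 500 nt outside one TSS to 500 nt outside the other, or 500 nt on either side of a solitary TSS. A peak's deposited fold and -log10 p together give back how many fragments cover the summit and how many the input would put there on average. The pileup is that number of fragments scaled to the depth of the input, and its percentile is its rank over all 20722 coding promoters in the same list. The lists hold 1036304, 846027 and 900109 peaks and run down to summits no higher than the input, so that nearly every window overlaps a peak and a peak alone is no sign of open DNA. Peaks with a -log10 p of 5 or more, a cut chosen after the data were seen, numbered 396, 340 and 67. Such a peak was the strongest at 43, 39 and 12 pairs, or 4.03%, 3.66% and 1.13%, where all coding promoters had 1.67%, 1.62% and 0.362% and CpG-rich solitary promoters 2.89%, 2.89% and 0.499%. Since each condition is 1 list, no difference between conditions can be set against replicate spread and no test was run. The intervals given are Wilson for shares and exact Poisson for pileups, and cover counting error only.

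Head-to-head pairs had a higher pileup than solitary promoters in all 3 lists. The median pileup of pairs was 9.83 (quartiles 8.04 and 12.1) in NG, 8.05 (5.97 and 10.6) under HG+NT and 7.19 (5.64 and 8.94) with the miR-93 mimic. Solitary promoters had medians of 4.91, 4.67 and 4.66, and all coding promoters 5.36, 4.93 and 4.86. As percentiles, the median pair stood at 81.1, 81.1 and 80.5. The share of pairs above the median solitary promoter was 93.2% (91.5 to 94.6), 90.9% (89.0 to 92.5) and 90.1% (88.2 to 91.8). A typical pair thus drew more fragments than about 80% of coding promoters in each condition.

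Part of this distance went with CpG content. CpG-rich solitary promoters had median pileups of 8.04, 6.49 and 6.02, and the CpG-rich pairs 10.3, 8.57 and 7.38. The share of CpG-rich pairs above the median CpG-rich solitary promoter was 79.0% (76.2 to 81.5), 75.4% (72.4 to 78.1) and 74.3% (71.3 to 77.0). The 165 CpG-poor pairs had medians of 7.15, 5.71 and 5.64, against 3.57, 3.64 and 3.69 at CpG-poor solitary promoters.

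The input was also higher at the pairs, and the ranking depends on whether it is divided out. The mean number of input fragments at the summit had a median of 4 at pairs in every list, against 2.08, 2.20 and 2.20 at solitary promoters and 3 in each list at CpG-rich solitary promoters. By the authors' fold, which divides by this mean, pairs had medians of 2.07, 1.81 and 1.61, and all coding promoters 1.81, 1.67 and 1.60. The share of CpG-rich pairs above the median CpG-rich solitary promoter then came to 52.4%, 48.9% and 40.2%, and by -log10 p to 59.9%, 55.9% and 45.0%. Pairs were therefore higher than CpG-rich solitary promoters in fragments, and not in fold in the 2 high glucose lists. The part of the input's own pattern in the pileup was not tested.

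**Figure D1:**
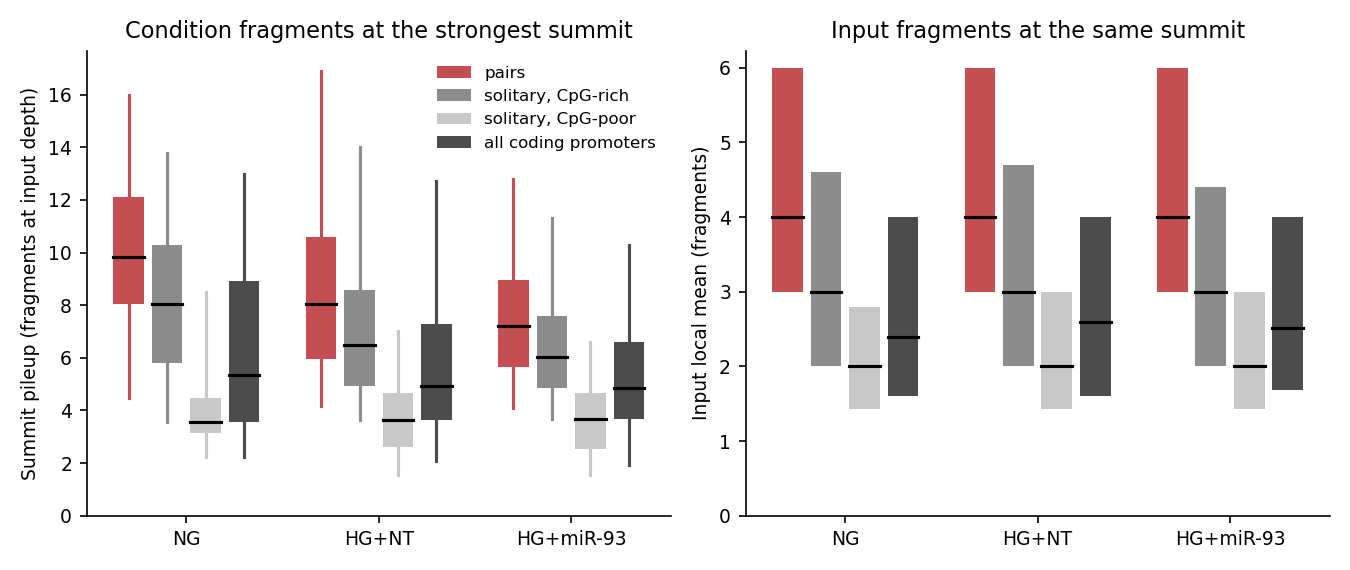
Pileup of condition fragments (left) and mean of input fragments (right) at the strongest summit of pairs, CpG-rich and CpG-poor solitary promoters and all coding promoters, in the 3 lists; boxes span the quartiles, black lines are medians and thin lines on the left run from the 5th to the 95th percentile. Pairs have the highest median in every list on both sides, 9.83, 8.05 and 7.19 for pileup and 4 for the input.

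A summit lay inside 93.2% (91.5 to 94.5) of pair windows in NG, 92.5% (90.8 to 93.9) under HG+NT and 91.2% (89.3 to 92.7) with the miR-93 mimic. Solitary windows held one in 65.5%, 61.8% and 61.9%, and CpG-rich solitary windows in 83.0%, 81.4% and 80.2%. In windows of the solitary length, 500 nt on either side of the midpoint, the pair values were 89.9%, 90.9% and 89.4%, still above both but nearer to the CpG-rich solitary windows. All 3 lists had a summit inside 912 windows, or 85.6%, and 25 windows held none in any list. Of those 25, 14 were CpG-poor, a class that makes up 15.5% of pairs. These counts over all 3 lists were not made for solitary windows.

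Strong summits were counted with the 20000 strongest peaks of each list by p, equal peaks included, which makes 28769, 21479 and 21234 peaks, so that the NG shares rest on a larger set. One lay inside 578 pair windows in NG, or 54.2% (51.2 to 57.2), where the share over all coding promoters was 26.3%. The counts were 386 windows, 36.2% (33.4 to 39.1), in HG+NT, where all promoters gave 17.5%, and 240 windows, 22.5% (20.1 to 25.1), in HG+miR-93, where they gave 12.6%. CpG-rich solitary promoters had shares of 43.4% (42.2 to 44.6), 29.9% (28.8 to 31.1) and 21.6% (20.6 to 22.6), so that the intervals of pairs and of this class overlapped in HG+miR-93 only. Within the CpG-rich class, pairs came to 57.4%, 39.7% and 24.6%.

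The pairs were not uniform. In all 3 lists 883 pairs, or 82.8%, were above percentile 50 of coding promoters, and 185, or 17.4%, were above the 90th percentile. At the other end, 56 pairs were below percentile 50 in every list, and 36 of these, or 64.3%, were CpG-poor. How many of all coding promoters met these conditions in all 3 lists was not counted, so the shares describe the pairs alone.

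Summits gathered near the midpoint of the pairs. In windows with a summit inside, the strongest lay at a median of 3, -3 and -1 nt from the midpoint, where negative values point to the gene on the minus strand. The middle 50% spanned 267, 205 and 230 nt, against 599, 597 and 597 nt for summits spread evenly over the windows. By strand the summits were split about evenly. The strongest was nearer to the minus-strand TSS in 487 and to the plus-strand TSS in 503 pairs in NG. The counts were 502 and 480 under HG+NT, then 490 and 479 with the miR-93 mimic. Strand is only a label here, so these counts and the median positions cannot show whether either gene drew the summit within single pairs. At solitary promoters 46.4%, 44.5% and 41.5% of summits lay upstream, and the middle 50% ran from -134 to 200 nt, -94 to 193 nt and -85 to 208 nt.

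**Figure D2:**
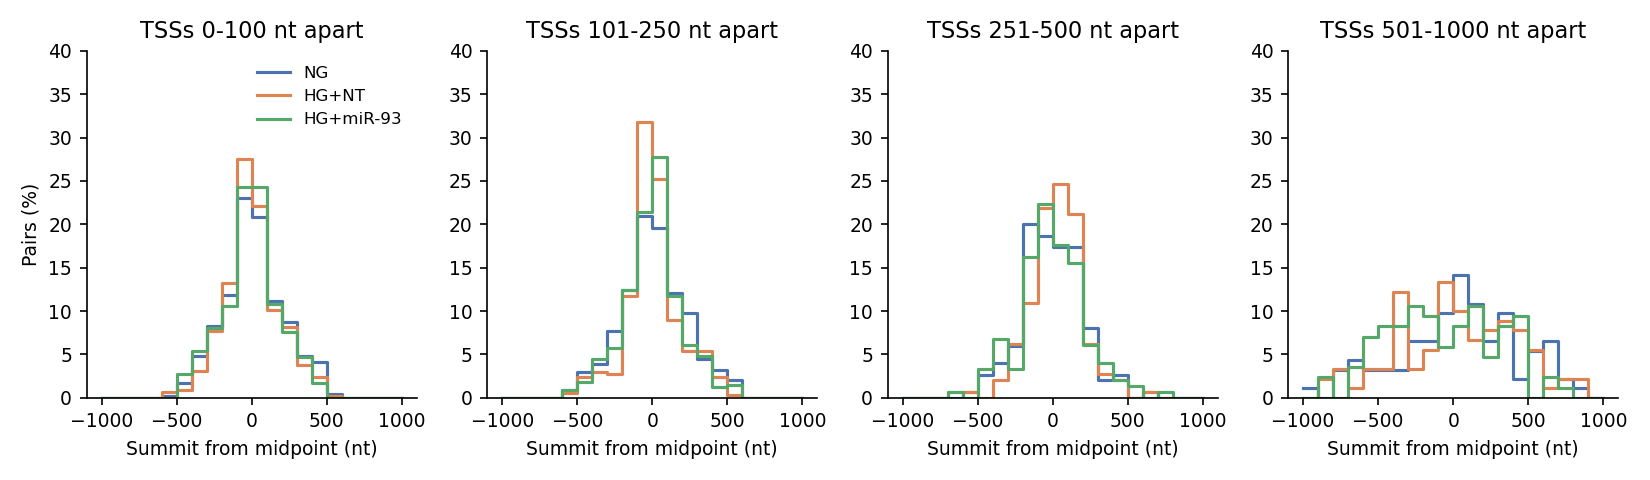
Position of the strongest summit relative to the midpoint between the TSSs, in bins of 100 nt, as a percentage of the pairs with a summit inside the window, by the distance between the TSSs and by list. Summits cluster about the midpoint up to a distance of 500 nt and spread out beyond, where the middle 50% spans 510, 624 and 556 nt.

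The share of summits between the TSSs was above the share of the window that lies between them at every distance. With TSSs at most 100 nt apart, 17.9% (14.5 to 21.9), 20.9% (17.2 to 25.0) and 18.6% (15.1 to 22.7) of strongest summits lay between them, in 5.15%, 5.12% and 5.10% of the window. From there to 250 nt the shares were 35.5%, 50.8% and 42.9% in 13.6%, 13.5% and 13.6% of the window. Between 250 and 500 nt they reached 65.3% (57.4 to 72.5), 76.0% (68.5 to 82.2) and 60.1% (52.1 to 67.7) in 25.4%, 25.1% and 25.2% of the window. Above 500 nt they were 63.0%, 63.3% and 61.2% in 41.2%, 41.4% and 41.3% of it. Summits of solitary promoters also lie close to their TSS, so the length of the stretch is not the only measure to set these shares against.

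Median pileup was highest between 250 and 500 nt, while by fold the 2 middle groups of distance were close to each other. The 156 pairs between 250 and 500 nt had median percentiles of 88.3 (95% interval of the median 83.9 to 90.1), 88.1 (86.1 to 91.4) and 87.9 (82.1 to 90.2). The 364 pairs from 100 to 250 nt had 81.1 (81.1 to 83.9), 83.8 (81.1 to 86.1) and 82.1 (78.8 to 85.0). In each list these intervals met or overlapped those of the group between 250 and 500 nt. The 446 pairs of at most 100 nt had 78.2 (78.2 to 81.1), 77.5 (75.5 to 79.4) and 75.8 (74.7 to 78.8), and the 100 pairs above 500 nt had 75.3, 75.5 and 77.8. In windows of 500 nt about the midpoint, which do not grow with the distance, the group between 250 and 500 nt kept 88.3, 88.1 and 87.9. By the authors' fold its median percentiles were 68.3, 64.6 and 53.9, beside 68.5, 65.5 and 52.8 in the group from 100 to 250 nt. CpG-rich pairs made up 89.0%, 84.6% and 88.5% of the 3 shorter groups and 58.0% of the longest. The share of windows with 2 or more summits was 4.93%, 11.7% and 13.5% up to 100 nt and 20%, 27.0% and 26.0% above 500 nt, where the window is also longer.

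**Figure D3:**
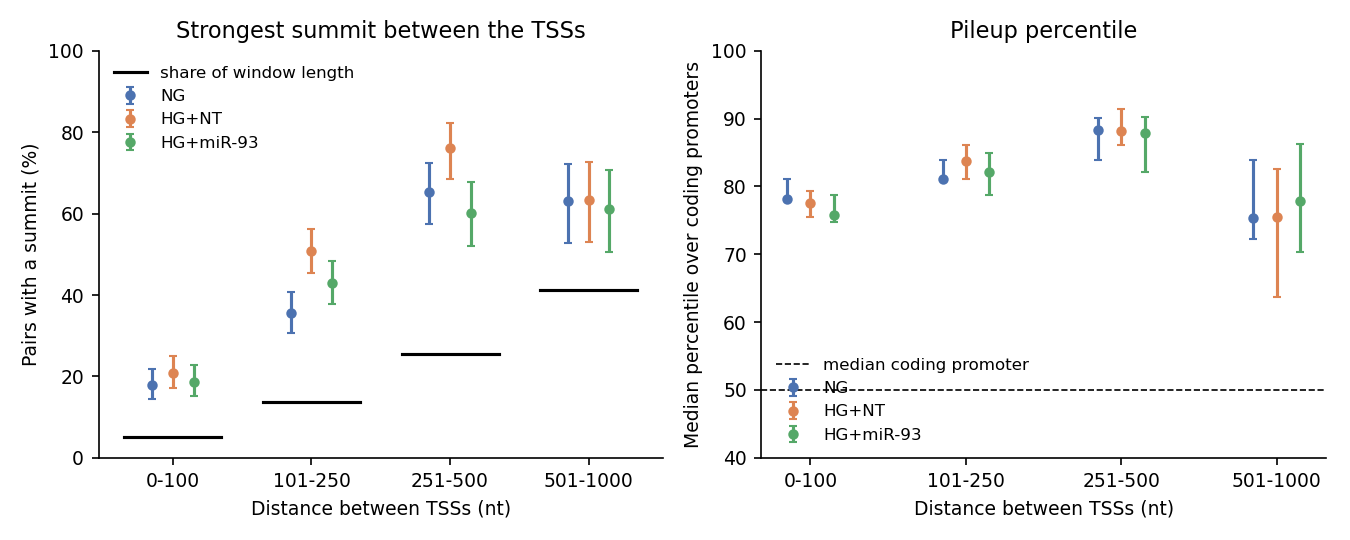
Left, percentage of strongest summits that lie between the TSSs, with 95% Wilson intervals, against the share of the window's length that lies there in NG (black lines); right, median pileup percentile of the pairs, with the 95% interval of the median, where 50 is the middle of all coding promoters. Points are the 3 lists; the share between the TSSs and the percentile are both high between 250 and 500 nt, where the percentile is 88.3 in NG.

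Motifs and pileup were set side by side within the pairs. The 80 pairs with NRF1 letters at either TSS had median percentiles of 86.2, 89.1 and 85.0, and the 986 without had 81.1, 79.4 and 78.8. The 518 pairs with CCAAT had 83.9, 85.0 and 82.1, against 78.2, 77.5 and 76.8 in the 548 without. The 67 pairs with TATAAA were lower, with 75.3, 73.5 and 62.4 against 81.1, 81.1 and 80.5. For ETS letters, which pair genes held more often than solitary promoters, the 344 pairs with and the 722 without were level at 81.1 in NG, and stood at 82.5 and 81.1 under HG+NT, then 80.5 and 78.8 with the miR-93 mimic. The 804 pairs with a GC box had 81.1, 82.5 and 82.1 against 79.7, 75.5 and 72.6, and the 54 with CRE letters 85.0, 87.6 and 85.6 against 81.1, 81.1 and 78.8. The 36 pairs with AP-1 letters were lower, like those with TATAAA, at 76.8, 71.3 and 66.5 against 81.1, 81.1 and 80.5. For YY1 letters the direction varied, with 83.9, 79.4 and 82.1 in 85 pairs against 81.1, 81.1 and 78.8.

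Fixed lists of genes by function, from the podocyte's filter to DNA repair, mitochondria, the proteasome and transcription, held genes of 16 pairs. Another 18 listed genes were in none. *Col4a1* and *Col4a2*, a well known head-to-head collagen pair, have no coding TSSs within 1000 nt that lie in the divergent order (their outermost TSSs overlap by 21 nt), and the same holds for *Ppat* and *Paics* (271 nt). Of the 16 pairs, 13 were above percentile 50 in all 3 lists and 7 were above the 90th percentile in all 3, while 10 had a summit inside the window in all 3. Over all 1066 pairs these shares were 82.8%, 17.4% and 85.6%. The highest of the 3 pileups was in NG for 11 pairs, under HG+NT for 4 and with the miR-93 mimic for 1, before centring on all promoters. The median of all coding promoters also shifted down from NG, by -0.16 on the log2 scale to HG+NT and -0.24 to HG+miR-93. How often NG was highest over all promoters was not counted, so this count is no trait of the listed pairs.

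The pairs of the podocyte's own filter were among the weakest of these by pileup, and stood differently by fold. *Kirrel2/Nphs1* encodes neph3 and nephrin, proteins of the slit diaphragm between podocyte foot processes, and its TSSs lie 800 nt apart (chr7:30457515-30458315). Its pileup was 4.02 (1.84 to 7.63) in NG, 4.41 (2.57 to 7.07) under HG+NT and 4.66 (2.99 to 6.94) with the miR-93 mimic, at percentiles 33.2, 41.7 and 46.0, and only the HG+NT list had a summit inside the window. The NG and HG+miR-93 values come from summits at -1391 and 9449 nt from the midpoint, so they are not those of the promoter itself. *Col4a4/Col4a3* had pileups of 6.70 (3.75 to 11), 6.23 (3.99 to 9.27) and 4.47 (2.83 to 6.71), at percentiles 59.2, 66.5 and 42.0. Its summit lay on the *Col4a3* side of the stretch in every list, 245, 152 and 134 nt from the midpoint. Both pairs were CpG-poor, with ratios of 0.282 and 0.452. By the authors' fold *Col4a4/Col4a3* had 2.57, 2.26 and 1.82, above the median pair in every list. *Kirrel2/Nphs1* had 1.25, 1.8 and 1.89, of which only the HG+NT value is from a summit inside the window.

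Other podocyte genes were at the middle of the range as well. Among the promoters of 6 podocyte markers, 4, 4 and 3 were above percentile 50, and their summed pileup was 38.4, 36.4 and 32.1. Of the 3 leukocyte markers none was above percentile 50 in any list, with *Ptprc* at percentiles 8.55, 8.26 and 6.94. The 4 endothelial markers had 1, 1 and 2 above it, the 2 mesangial markers 0, 2 and 0, and the 5 tubule markers 1, 3 and 3. At these promoters the podocyte label is set off from leukocyte genes but not from other kidney cells.

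DNA repair and replication held 7 of the 16 pairs, most of them among the strongest. *Mcm4/Prkdc*, a subunit of the replicative helicase and the DNA-dependent protein kinase, had pileups of 17.0 (12 to 23.3), 16.1 (12.3 to 20.6) and 11.7 (8.90 to 15), at percentiles 99.3, 98.1 and 97.2. Its summit lay between the TSSs, which are 489 nt apart, in all 3 lists. *Atm/Npat*, the kinase that answers double-strand breaks and a regulator of histone genes, had 11.6, 13.5 and 11.7, with the summit at -44, -42 and 64 nt from the midpoint, between the TSSs each time. *Brca1/Nbr1* had 14.3 (9.78 to 20.2), 15.6 (11.9 to 20.1) and 10.9 (8.22 to 14.1), but its summits lay beyond the *Nbr1* TSS, 437, 369 and 394 nt from the midpoint. By fold the same pair had 1.27, 1.84 and 1.45, because the input mean there was 11, 8 and 7.20.

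Other repair pairs differed in where the summit fell. *Fen1/Tmem258*, the flap endonuclease and a subunit of the oligosaccharyl transferase, had pileups of 12.1, 11.9 and 7.97. *Wrap53/Trp53* had 9.83 (6.16 to 14.9), 8.05 (5.47 to 11.4) and 6.02 (4.09 to 8.55), yet no summit lay inside its window in any list: the peak that overlaps it had its summit at -1356, -1004 and -861 nt from the midpoint, on the *Wrap53* side. *Emc3/Fancd2* had 9.38 (5.81 to 14.3), 3.64 (1.99 to 6.10) and 4.47 (2.83 to 6.71), with the summit at -38 and -49 nt from the midpoint in the first and last list and none inside the window under HG+NT. The HG+NT value comes from a summit at -1685 nt from the midpoint, so the fall to it is not that of the promoter itself. At -1.21 on the centred log2 scale it was the largest fall from NG among the listed pairs, and the intervals overlapped after centring.

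*Mcm7/Ap4m1* holds the host gene of miR-93, which is encoded in an intron of *Mcm7*, beside a subunit of an adaptor complex of vesicle transport. The pileup was 14.7 (10.1 to 20.7) in NG, 10.4 (7.42 to 14.1) under HG+NT and 9.91 (7.38 to 13.0) with the miR-93 mimic, at percentiles 97.7, 90.7 and 94.1. After centring, the log2 change was -0.34 from NG to HG+NT and 0.01 between the high glucose lists, and no intervals were apart. With the miR-93 mimic no summit lay inside the window and the strongest was at -713 nt from the midpoint, so the last value is not that of the promoter itself.

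Mitochondrial and folding genes gave 4 pairs. *Hspd1/Hspe1*, the chaperonin and its lid, had pileups of 15.6 (10.9 to 21.7), 14 (10.5 to 18.3) and 11.5 (8.73 to 14.8), and its summits fell 102, -8 and 17 nt from the midpoint of a stretch of 108 nt. *Mrps12/Sars2*, with the 4 CCAAT matches printed above, had 12.5, 12.5 and 9.91, with summits 175, 234 and 278 nt from the midpoint on the *Sars2* side. *Surf1/Surf2*, whose TSSs are 22 nt apart, had 8.93 (5.46 to 13.8), 5.45 (3.38 to 8.34) and 5.64 (3.77 to 8.09), where the HG+NT value comes from a summit outside the window, 600 nt from the midpoint. *Sirt3/Psmd13*, a mitochondrial deacetylase and a proteasome subunit, had 14.7 (10.1 to 20.7), 6.49 (4.20 to 9.58) and 7.97 (5.72 to 10.8), a change of -1.02 from NG to HG+NT. Its input mean was 10, 9 and 8, so that its fold was 1.43, 0.749 and 0.996 and stood below 1 in both high glucose lists.

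The last 2 listed pairs join a proteasome subunit to another process. *Psmb9/Tap1*, the immunoproteasome subunit and the peptide transporter of antigen processing, had pileups of 9.38, 9.87 and 7.58. *Psmb1/Tbp* had 7.15, 5.71 and 5.83, at percentiles 62.4, 60.8 and 65.1, but in NG no summit lay inside its window and the strongest was at -1910 nt from the midpoint. None of the 16 listed pairs had Poisson intervals apart between any 2 lists after centring.

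**Figure D4:**
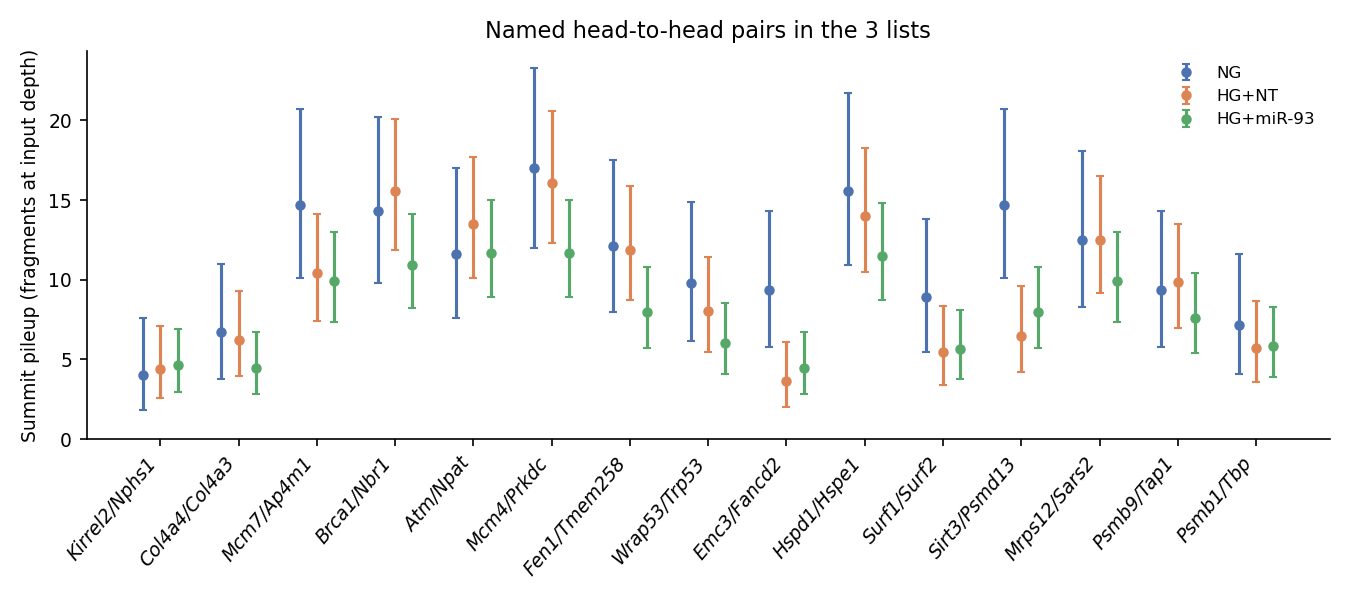
Summit pileup of listed pairs in the 3 lists, in fragments scaled to the input, with exact 95% Poisson intervals, in the order of the gene lists. *Kirrel2/Nphs1* is lowest in NG at 4.02, from a summit outside its window, and *Mcm4/Prkdc* highest at 17.0. The intervals of the 3 lists overlap for most pairs.

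Gene families chosen by the start of their symbol gave the pairs' roles on a wider scale. Of 78 genes of the mitochondrial ribosome 26 were in pairs, or 33.3%, and of 44 genes of complex I and its assembly 16, or 36.4%, where 10.1% of all coding genes were. The 25 mitochondrial ribosome pairs had median percentiles of 78.2, 81.1 and 78.8, and the 16 complex I pairs 79.7, 78.5 and 75.8. Both were close to the pairs as a whole. The 15 DNA repair pairs had 83.9, 81.1 and 85.0, the 20 chaperone pairs 81.1, 86.6 and 85.6, and the 29 zinc finger pairs 83.9, 77.5 and 88.4. The families differed in how far their pairs stood from their own solitary promoters, which had 59.2, 54.2 and 49.8 for zinc fingers, 75.3, 73.5 and 72.6 for the mitochondrial ribosome, 72.2, 73.5 and 53.3 for complex I, 67.3, 72.4 and 65.1 for DNA repair, and 83.9, 76.5 and 78.8 for chaperones.

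Protein turnover and synthesis were mixed. The 8 proteasome pairs had 73.8, 71.2 and 65.1, level with their solitary promoters at 70.6, 71.3 and 69.1. The 15 pairs with a gene of the cytosolic ribosome, or a kinase that shares its prefix, had 81.1, 71.3 and 67.8, against 73.8, 69.0 and 65.1. Olfactory and vomeronasal receptors, with 1456 genes, gave 1 pair, *Nt5c3/Vmn1r4*, at percentiles 78.2, 88.1 and 87.4, and the keratin prefix gave 1, *Trim46/Krtcap2*, which is no keratin.

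Replication-dependent histones, used when DNA is copied, had the lowest levels of the families with 8 or more pairs. Of their 67 genes 27, or 40.3%, were in 14 pairs, mostly an H2a gene facing an H2b gene. The pairs had median percentiles of 64.0, 63.7 and 35.9, and 10, 9 and 6 of the 14 were above percentile 50. Their median log2 change, centred on all promoters, was -0.05 from NG to HG+NT, -0.12 between the high glucose lists and -0.33 from NG to HG+miR-93, where all pairs had -0.04, -0.11 and -0.15. The last of these lay within the range of the other families with 8 or more pairs, with -0.39 for the cytosolic ribosome, -0.36 for complex I, -0.34 for the mitochondrial ribosome, -0.30 for the proteasome, -0.26 for DNA repair, -0.10 for zinc fingers and -0.05 for chaperones. Copies within the clusters are near-identical, and how the authors' mapping placed reads shared between them is not given in the sources used here, so levels of single histone pairs are uncertain.

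The extremes of the 1066 pairs were taken by their mean percentile. *Mms19/Ubtd1*, an iron-sulfur assembly factor and a ubiquitin-like protein, had pileups of 20.1 (14.7 to 26.9), 30.6 (25.4 to 36.7) and 24.3 (20.2 to 28.9), with all 3 summits between its TSSs. *Bbip1/Shoc2*, a subunit of the BBSome and a scaffold of the Ras pathway, had 18.8, 24.2 and 17.3, and *Rita1/Ddx54*, a Notch modulator and an RNA helicase, had 18.8, 24.2 and 16.1. The first 2 are on chromosome 19. The lowest pairs were *Glo1/Dnah8* (1.34, 1.56 and 2.14), *Hist1h2bq/Hist1h2ao* (3.13, 2.34 and 2.53) and *Gm3448/Gm3435* (2.23, 3.90 and 3.30). None of these 3 had a summit inside its window in any list, and the peak reaching into the window had its summit far away. For *Glo1/Dnah8* it was at -3479, -3606 and -3468 nt from the midpoint, for *Hist1h2bq/Hist1h2ao* at -14533, 11875 and -17978 nt, and for *Gm3448/Gm3435* at 45149, 47913 and 47694 nt, so their values describe the surroundings.

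Between conditions the pairs moved little. On the log2 scale, centred on the median of all coding promoters (a shift of -0.16 from NG to HG+NT, -0.08 between the high glucose lists and -0.24 from NG to HG+miR-93), the median change of pairs was -0.04 (-0.09 to -0.02), -0.11 (-0.13 to -0.09) and -0.15 (-0.17 to -0.12). CpG-rich solitary promoters had -0.04, -0.02 and -0.06. Pairs below 0 made up 54.6%, 64.1% and 68.2%. Strong promoters of any kind also lay below 0: all promoters between percentiles 70 and 90 had medians of -0.10, -0.08 and -0.17. Measured against promoters of the same strength, the pairs had -0.04 (-0.07 to -0.01), -0.01 (-0.03 to 0.01) and -0.05 (-0.08 to -0.02), an alternative chosen after seeing the data. With only summits inside the window, the first of the 3 medians was 0.00. The 3 comparisons share lists, and each is given by itself.

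Changes past 2-fold were rare. From NG to HG+NT, 6 pairs (0.563%) were higher and 8 (0.751%) lower, where 2.00% and 1.85% of all coding promoters were. From HG+NT to HG+miR-93, 1 pair (0.0939%) was higher and 1 lower, against 0.502% and 0.618%. From NG to HG+miR-93, 5 (0.469%) were higher and 7 (0.657%) lower, against 2.41% and 1.75%. Without centring, the counts were 3 higher and 25 lower, 0 and 2, and 2 and 52. With only summits inside the window they were 8 and 6, 2 and 1, and 8 and 3. Under these 2 settings all coding promoters were not counted, so the balance of rises and falls is not read as a trait of the pairs. Poisson intervals were apart at 7 pairs (0.657%) in each comparison, against 0.826%, 0.357% and 0.594% of all promoters, differences that rest on few pairs. The median summit held 22, 31 and 37 fragments at pairs and 12, 19 and 25 at all promoters, and the part of this depth in the lower shares was not tested.

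**Figure D5:**
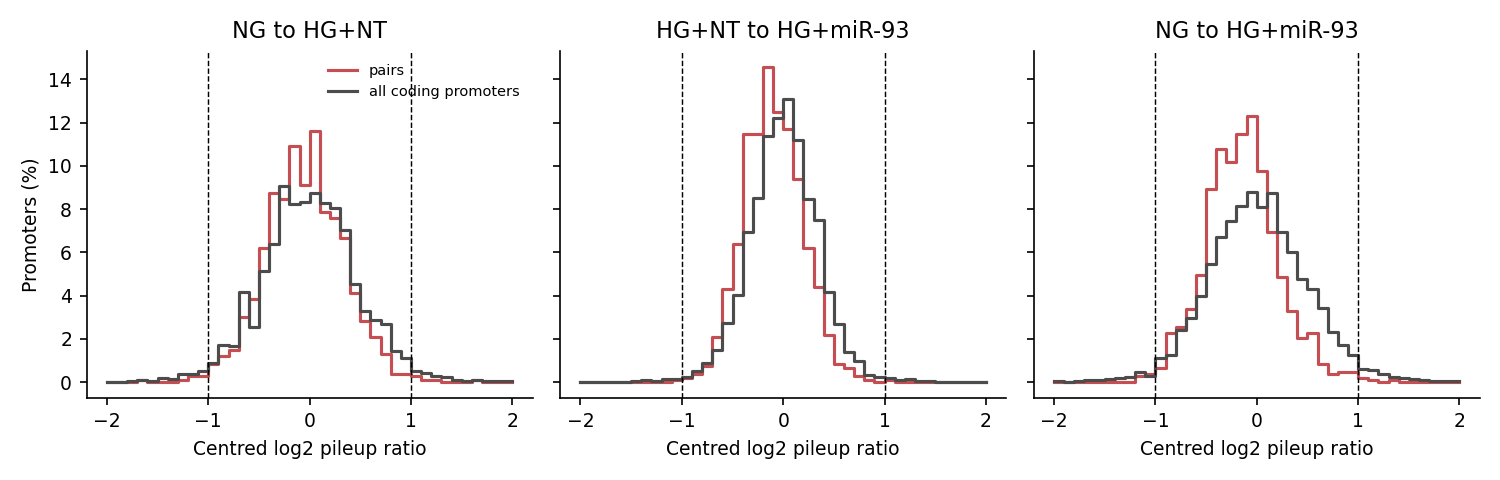
Distribution of the centred log2 ratio of pileups between lists for the pairs and for all coding promoters, in bins of 0.1; dashed lines mark 2-fold. Pairs are shifted to slightly lower values, with medians of -0.04, -0.11 and -0.15, and few lie past 2-fold.

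Rises and falls are ranked among pairs with the strongest summit inside the window in both lists compared. The largest rises included a pair near the top of both high glucose lists. *Casc1/Etfrf1*, an axonemal gene and a regulator of electron transfer flavoprotein, had pileups of 8.04 (4.76 to 12.7), 16.9 (13.0 to 21.5) and 15 (11.8 to 18.7), with centred changes of 1.23 and 1.14 from NG, and its intervals were apart in both. *Kctd19/Lrrc36*, on chromosome 8, rose from 2.68 to 4.93 and 4.66, and *Heatr5b/Gpatch11* had 7.59, 13.8 and 10.5, with the summit between its TSSs in every list. *Mrpl43/Twnk*, a mitochondrial ribosomal protein and the mitochondrial helicase, had 8.04, 8.83 and 11.3, among the 3 largest rises from NG to HG+miR-93, and lies on chromosome 19. The median promoter of chromosomes 8, 15 and 19 also rose from NG, as given below.

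The largest falls from NG were spread over several functions. *H2-T22/Gm6034* had 10.3 (6.51 to 15.4), 2.86 (1.43 to 5.11) and 4.66 (2.99 to 6.94), a change of -1.69 to HG+NT with intervals apart. Its last value comes from a summit 18505 nt from the midpoint, with none inside the window. The pair lies in the class I major histocompatibility region, whose genes resemble each other. *Rps27/Rab13* had 8.49, 3.38 and 5.83 and *Alkbh1/Slirp* 10.3, 4.15 and 5.64, with intervals overlapping. *Lcmt2/Adal* fell from 14.7 (10.1 to 20.7) in NG to 5.44 (3.62 to 7.86) in HG+miR-93 and *Ppp2r3c/1110008L16Rik* from 12.5 (8.31 to 18.1) to 4.66 (2.99 to 6.94), changes of -1.19 and -1.18 with intervals apart, and *Hist1h2ah/Hist1h2bk* had 9.38, 6.49 and 3.69.

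Between the high glucose lists none of the 6 pairs with the largest changes by this ranking had intervals apart. The largest rises so ranked were *Rps27/Rab13* at 0.87, *Mmachc/Ccdc163* at 0.70 (4.41 to 6.80) and *Amdhd1/Ccdc38* at 0.66 (2.86 to 4.28). The largest falls were *Hist1h2ac/Hist1h2bc* at -1.01 (9.09 to 4.28), *Fbxl13/Armc10* at -0.88 (10.9 to 5.64) and *Rad51c/Tex14* at -0.85 (9.61 to 5.05).

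The 139 pairs on chromosomes 8, 15 and 19 behaved differently from the rest. From NG to HG+NT their median change was 0.17 (0.08 to 0.27), and that of the 926 pairs on the other autosomes -0.09 (-0.13 to -0.06). All coding promoters on these chromosomes had 0.30 (0.27 to 0.32), and those elsewhere -0.04. From NG to HG+miR-93 the pairs had 0.04 (-0.02 to 0.11) and -0.19 (-0.22 to -0.15), where all promoters on the 3 chromosomes had 0.29 (0.27 to 0.31). Between the high glucose lists the pairs had -0.09 (-0.14 to -0.05) and -0.11 (-0.14 to -0.09), with intervals overlapping. In both comparisons with NG the median of all promoters of these chromosomes rose, which was known from these data before the pairs were chosen. The pairs there rose less from NG to HG+NT. From NG to HG+miR-93 their interval of -0.02 to 0.11 shows no clear rise against the median of all coding promoters. It still lies above the interval of -0.22 to -0.15 of pairs on the other autosomes. Between the high glucose lists all promoters there had -0.00 (-0.02 to 0.01).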

How the data were processed

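Chromatin of cultured mouse podocytes was profiled by DNase-seq in 2 samples for each of 3 conditions, with 1 genomic DNA input. Per the submitters' processing notes and the study's methods, reads were demultiplexed with CASAVA 1.8.2, trimmed, mapped to mm10 with Bowtie, filtered for duplicates and passed to MACS2. The values deposited by the authors are a fold (ratio of scaled fragments to the input's local mean, each plus 1) and a -log10 p at each summit, and the summit's offset, in 1 joint list per condition. The lists' columns of scores and q-values, 6 in all, were not used. Peak caller settings are given only by reference to those advised for DNase-seq.

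Fragments at each summit were recovered from the authors' fold and -log10 p with 1 scaling factor per list (0.44664, 0.25969 and 0.19434) and an input mean that is either the background of 1.4283 or a multiple of 0.02. Every peak had a solution, unique for 100.0%, 100.0% and 99.8%. With fold and p taken from different peaks, 0.206%, 0.176% and 0.134% had one. The condition libraries were thus 2.24, 3.85 and 5.15 times as deep as the input. Overlap required 1 bp. TSSs are starts of coding transcripts, and a pair takes its closest TSSs, so that at 310 pairs the outermost starts overlap. Sequences are RefSeq's GRCm38.p6, and peak ends lay within its chromosome lengths. Scripts ran under Python 3.11.15 (pysam 0.24.0, scipy 1.17.1, pandas 2.3.3, numpy 2.4.6), and the steps were checked on simulated data.

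Named are pairs holding a gene of fixed lists of functions, the 3 highest and 3 lowest by mean percentile, and for each pair of lists the 3 largest rises and falls among pairs with a unique solution and the strongest summit inside in both. Sequences are printed for 6 of the listed pairs with 20 to 300 nt between TSSs and no coding transcript there. Members and lists were chosen with earlier results of these data known. Alternatives changed the measure, windows, peaks, TSSs, chromosomes, centring and threshold.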

Additional observations from a re-analysis of the deposited data

How the results depend on the processing

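The results depend on the processing in several ways. Of 129 alternatives tried over 18 results, 66 stayed within the interval of the main value, or within 1.5-fold of it for counts of pairs. Another 59 moved, and 4 reversed or lost the direction. Values in sets of 3 follow the order of the lists, NG first, and for changes NG to HG+NT, HG+NT to HG+miR-93, NG to HG+miR-93. The cause of these shifts was not tested. No paired analysis was possible because each condition is 1 joint list of peaks.

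The measure changed the ranking of pairs against solitary promoters. The share of pairs above the median solitary promoter, 93.2%, 90.9% and 90.1% by pileup, was 67.3%, 62.1% and 52.1% by the authors' fold, 74.5%, 67.6% and 54.2% by -log10 p, and 83.8%, 77.9% and 67.3% by pileup less the input mean. Within the CpG-rich class the shares of 79.0%, 75.4% and 74.3% became 52.4%, 48.9% and 40.2% by fold, where the latter 2 reversed. By -log10 p they became 59.9%, 55.9% and 45.0%, the last reversed, and by pileup less the input mean 70.4%, 63.7% and 52.8%. The difference from the input mean was added after seeing the data.

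Which peaks and promoters count also changed these shares. With only summits inside the windows the share of pairs above the median solitary promoter was 89.5%, 84.0% and 85.3%, and in the CpG-rich class 74.0% in NG and 68.7% with the miR-93 mimic. With only the 50000 strongest peaks it was 78.5%, 82.7% and 81.2%, and 74.2% for CpG-rich pairs in NG. Against solitary promoters of genes with 1 TSS it was 94.7%, 95.1% and 94.0%, and in the CpG-rich class 84.0%, 82.0% and 78.1%.

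Summit positions moved by a few percent. In windows of 500 nt about the midpoint, an alternative added after seeing the data for this result, a summit lay inside 89.9% in place of 93.2% in NG. The share of summits between the TSSs, 43.0% under HG+NT and 36.9% with the miR-93 mimic, was 38.9% and 33.3% over all summits and 48.6% and 41.6% for pairs by the outermost TSSs. Under HG+NT it was 46.9% with only the 50000 strongest peaks.

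Changes between lists followed the centring. Without it the median log2 changes of -0.04, -0.11 and -0.15 were -0.20, -0.19 and -0.39. With only summits inside they were 0.00, -0.08 and -0.07, so that the first lost its direction. Centred on promoters of the same strength, which was added after seeing the data, the latter 2 were -0.01 and -0.05, and by fold the last was -0.12.

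The number of pairs past 2-fold, 14, 2 and 12, changed with most settings. It was 51, 31 and 60 by fold, 133, 53 and 134 at 1.5-fold, 2, 0 and 1 at 3-fold, and 8, 1 and 7 without chromosomes 8, 15 and 19. Without centring it was 28 in the first and 54 in the last comparison, and in windows about the midpoint 4 in the middle one. With only summits inside, the counts of higher and lower pairs turned from 6 and 8 to 8 and 6 in the first comparison and from 5 and 7 to 8 and 3 in the last. All coding promoters were not counted under these alternatives.

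The main limits are 1 cell line, 1 joint list per condition with no replicate spread, a single input shared by all lists, and few fragments per summit. Libraries differ in depth, and the input is itself higher at CpG-rich pairs. Peaks are wide, so that the strongest peak of a window can have its summit outside. DNase signal at a shared promoter cannot be assigned to either gene, and no measure of transcription was used. NG has no named mimic, so its difference from HG+NT joins glucose and transfection.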
